A study of Saccharomyces cerevisiae W303 with 16 samples.

Results

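The distal 3'-UTR is the stretch of an mRNA that starts at the first in-frame stop codon downstream of the canonical stop codon and runs to the end of the 3'-UTR. Ribosome footprints in it were described here for every transcript whose 3'-UTR has an annotated length and whose distal part is at least 90 nt long. This rule took 1415 of the 6575 transcripts in the deposited readthrough tables, and it used lengths only and no footprint count. Transcripts given the most frequent 3'-UTR length of 176 nt, which counts the stop codon and is the value set where no length was known, were left out (3742 transcripts). Another 1189 transcripts with an annotated 3'-UTR have a distal part of 1 to 89 nt, and in 229 the extension, the stretch upstream of that second stop codon, runs to the end of the 3'-UTR.

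Ribosome profiling, which sequences the mRNA fragments covered by ribosomes, and RNA-Seq were done on *Saccharomyces cerevisiae* of the W303 background. The mutant strain HFY1218 carries *sup45-2*, a temperature-sensitive allele of the eRF1 gene called *sup45-ts* here, and was derived from the wild-type *SUP45* strain HFY114. Both strains are MATa with can1-100, ade2-1, ura3-1, trp1-1 and mutant alleles of *HIS3* and *LEU2*, were grown in YPD at 25°C, and were then held for 30 min at 37°C or at 25°C as a mock shift. There were 16 libraries, with 2 replicates of each assay in the 4 conditions, which are *sup45-ts* at 37°C, *SUP45* at 37°C, *sup45-ts* at 25°C and *SUP45* at 25°C. The footprints of both replicates had been combined before deposit, so each condition gave 1 value per transcript. Intervals on footprint values therefore cover counting error only, the spread between cultures is not known, and no test between conditions was made on them. The tables held 6463100 footprints in CDS and 3'-UTRs for *sup45-ts* against 16629631 for *SUP45* cells at 37°C, with 21557248 for *sup45-ts* against 17278816 for *SUP45* cells at 25°C.

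eRF1, encoded by *SUP45*, recognises a stop codon once it reaches the A site and, with the GTPase eRF3, releases the finished protein, after which the ribosome is split by the recycling factor Rli1. Where the stop codon is decoded by a near-cognate tRNA instead, the ribosome enters the 3'-UTR in the frame of the CDS and meets the next stop codon of that frame. Footprints beyond that codon lie past both stop codons of the frame. The paper reports that the frame of the CDS dominated in the extension, but in most strains not in the distal 3'-UTR. It names frameshifting and reinitiation as other possible events at the stop codon. By which of these routes the ribosomes counted in the distal part came there was not tested. By the methods of the study the counts took only footprints in frame 0, the frame of the CDS. Every density and ratio below is therefore one of frame 0 footprints and leaves out those in the other frames. In all 388 transcripts whose extension runs to the end, the deposited 3'-UTR and extension counts were equal in all 4 tables, so the distal counts described here, the difference of both, hold footprints of the same kind.

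Over the 1415 transcripts the 3'-UTR had a median length of 172 nt (93 to 1410 nt), the extension 21 nt (3 to 408 nt) and the distal part 141 nt (90 to 1371 nt, quartiles 112 and 194 nt). The deposited extension length includes the canonical stop codon, so an extension of 3 nt is a stop codon followed directly by another one. Coordinates on the R64 build could be given for 1414 of the 1415. In 73 of them another transcript on the same strand overlapped by more than 18 bp, and in 197 a gene on the opposite strand lay under the distal part. At the limit of 90 nt, *POL30* (DNA polymerase clamp, 90 nt) had a ratio to its CDS density of 6.67% and *ATG12* (autophagy conjugation protein, 90 nt) of 21.4% in *sup45-ts* cells at 37°C. Just below the limit, *ILS1* (isoleucyl-tRNA synthetase, 89 nt) had 58.1% and *RPL23A* (large ribosomal subunit protein, 89 nt) 8.63%.

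Distal 3'-UTRs were densely covered by ribosomes at 37°C where eRF1 was mutant and nearly empty in the other conditions. The 1415 regions held 289818 distal footprints in *sup45-ts* against 551 in *SUP45* cells at 37°C, with 1942 in *sup45-ts* against 1071 in *SUP45* cells at 25°C, although the table of *sup45-ts* at 37°C is the shallowest of the 4. Relative to the number that each region would hold at the footprint density of its own CDS, the distal-to-CDS ratio was 57.0% in *sup45-ts* at 37°C (95% Poisson interval 56.7 to 57.2%). It was 0.0394% in *SUP45* cells at 37°C (0.0362 to 0.0429%). At 25°C it was 0.0775% in *sup45-ts* (0.0741 to 0.0811%) against 0.0501% in *SUP45* cells (0.0472 to 0.0532%). The ratio of *sup45-ts* over *SUP45* was 1445-fold at 37°C (counting interval 1329 to 1574) and 1.55-fold at 25°C (1.43 to 1.67). With the 73 overlapped transcripts left out, the ratio was 57.3% in *sup45-ts* against 0.0341% in *SUP45* cells at 37°C, with 0.0723% in *sup45-ts* against 0.0400% in *SUP45* at 25°C, where the fold was 1.81 (1.66 to 1.97). Between the temperatures, *sup45-ts* was 735-fold higher at 37°C than at 25°C (702 to 768), while in *SUP45* the ratio at 37°C was 0.786 times that at 25°C (0.708 to 0.872).

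**Figure D1:**
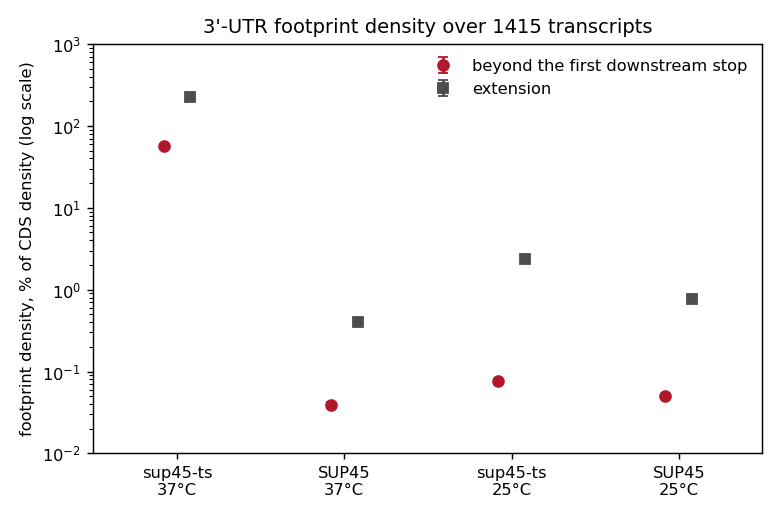
Footprint density of the distal 3'-UTR (circles) and of the extension (squares) over the 1415 transcripts, as a percentage of the CDS density of the same transcripts, on a log axis, for the 4 conditions. Bars are 95% Poisson intervals for counting error and are mostly smaller than the symbols. In *sup45-ts* at 37°C the distal density was 57.0% of the CDS density, against at most 0.0775% in the other conditions.

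The extension upstream of these regions was denser than the distal part in every condition, by a factor that differed between conditions. The paper reports that ribosomes also stalled at the stop codon that ends the extension. Footprints of such ribosomes were kept in the extension counts, while the CDS counts leave out both ends of the CDS. For this reason the paper allows that readthrough may be overestimated to some degree. How much of the extension density came from stalled ribosomes was not tested. Extension density was 224% of CDS density in *sup45-ts* against 0.397% in *SUP45* cells at 37°C, with 2.37% in *sup45-ts* against 0.766% in *SUP45* cells at 25°C. Distal density, pooled over the transcripts, was 23.8% of extension density in *sup45-ts* (exact interval 23.7 to 24.0%) against 11.2% in *SUP45* cells (10.01 to 12.4%) at 37°C, with 4.19% in *sup45-ts* (3.99 to 4.40%) against 8.44% in *SUP45* cells (7.84 to 9.08%) at 25°C. At 25°C the mutant thus had the lowest ratio of distal to extension footprints of the 4 conditions, with extension density 3.10-fold above *SUP45* (2.96 to 3.25) beside the 1.55-fold of the distal part. At 37°C the extension was 564-fold above *SUP45* (528 to 603) beside the 1445-fold of the distal part. In frame 0 footprints, the distal part held 56.7% of the 3'-UTR count of these transcripts in *sup45-ts* against 37.9% in *SUP45* cells at 37°C. At 25°C it held 18.7% in *sup45-ts* against 31.6% in *SUP45* cells. Since frame 0 dominated less widely beyond the second stop codon, the frame filter may leave out a larger part of distal than of extension footprints. The size of that loss was not examined.

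The signal was spread over nearly all transcripts in *sup45-ts* at 37°C. A distal footprint was seen in 1375 of the 1415 transcripts (97.2%) in *sup45-ts* against 246 (17.4%) in *SUP45* cells at 37°C, with 427 (30.2%) in *sup45-ts* against 299 (21.1%) in *SUP45* cells at 25°C. At least 10 distal footprints were seen in 1067 transcripts in *sup45-ts* against 5 in *SUP45* cells at 37°C, with 44 in *sup45-ts* against 15 in *SUP45* cells at 25°C. In 761 transcripts distal footprints were seen in *sup45-ts* at 37°C alone, in 95 they were seen in all 4 conditions and in 35 in none. At 37°C 1374 transcripts had a higher distal-to-CDS ratio in *sup45-ts* than *SUP45* cells and 1 had a lower one, YMR010W, which had no distal footprint in *sup45-ts* and 1 in *SUP45*. At 25°C 339 transcripts were higher in *sup45-ts* and 195 were lower, while extension density was higher in *sup45-ts* in 714 and lower in 133. These counts have no replicates, so a single transcript with a few footprints at 25°C cannot be called different.

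Transcripts differed widely in how many ribosomes their distal part held in *sup45-ts* at 37°C. Among the 637 in which at least 100 distal footprints would be expected at CDS density, the median ratio was 32.4%, the quartiles were 14.8 and 68.5%, and the 10th and 90th percentiles 6.65 and 141%. Distal density was above CDS density in 111 of the 637 (17.4%) and under 10% of it in 114 (17.9%). The median extension density of the same 637 was 168% of CDS density, and 111 transcripts had a distal density above that of their own extension. Across these transcripts the distal ratio was weakly related to the extension ratio (Spearman's rho 0.232), to extension length (-0.198) and to distal length (0.161) and hardly to CDS RPKM (-0.03). These are descriptions across transcripts that share a library and, in the ratios, a CDS count. In the other conditions the median ratio over transcripts with the same expectation was 0.

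**Figure D2:**
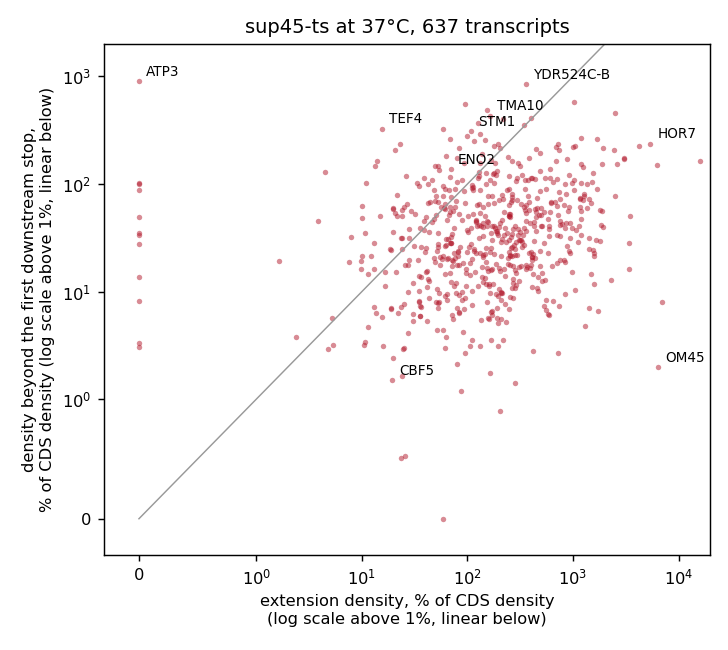
Distal against extension density in *sup45-ts* at 37°C for the 637 transcripts with at least 100 expected distal footprints, each as a percentage of the CDS density of the transcript, on axes that are logarithmic above 1% and linear below. Each point is a transcript and the line marks equal densities. The points scatter widely, with *ATP3* at 903% without an extension footprint and *OM45* at 1.97% with one of the densest extensions.

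Among the 606 of the 637 transcripts that had no same-strand overlap, the highest ratio belonged to *ATP3* (YBR039W), the gamma subunit of mitochondrial F1 ATP synthase, whose distal part lies at chrII:316511-316688 on the plus strand of R64. It held 2320 distal footprints in *sup45-ts* against 0 in *SUP45* cells at 37°C, with 22 in *sup45-ts* against 1 in *SUP45* cells at 25°C. Its CDS held 1278 footprints in *sup45-ts* against 3740 in *SUP45* cells at 37°C, with 6363 in *sup45-ts* against 4732 in *SUP45* cells at 25°C. The ratio in *sup45-ts* at 37°C was 903% (843 to 967%), while its extension of 3 nt had no footprint in any condition. *YDR524C-B* followed with 9138 distal footprints in *sup45-ts* at 37°C against 3 in *SUP45* at 37°C, and with 14 in *sup45-ts* against 8 in *SUP45* at 25°C, a ratio of 847% (773 to 929%) over a CDS of 198 nt with 489 counted footprints. The small TOM complex subunit gene *TOM5* had 642 distal footprints in *sup45-ts* at 37°C and 0 in each of the other conditions, a ratio of 579% (457 to 742%) that rests on 78 CDS footprints.

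*ECM33*, a cell wall protein gene, had 2979 distal footprints in *sup45-ts* and 2 in *SUP45* at 37°C, a mutant ratio of 559%. At the same temperature *TMA10*, which encodes a ribosome-associated protein, had 5900 in *sup45-ts* and 0 in *SUP45* (432%). *TIM11*, for a subunit of the ATP synthase dimer, had 1465 in *sup45-ts* and 0 in *SUP45* (408%), and *RIP1*, the Rieske iron-sulfur subunit of respiratory complex III, had 3987 in *sup45-ts* and 2 in *SUP45* (401%). The remaining transcripts of the 10 highest were *RPL14B* of the large ribosomal subunit (368%), *ARC19* of the Arp2/3 actin complex (350%) and *TEF4*, a subunit of the elongation factor eEF1B (327%). Reads shared with a paralogue may have been assigned to either copy, so the CDS count of *RPL14B* is uncertain. None of the 10 had more than 22 distal footprints in another condition. Components of mitochondrial membranes stand beside cell wall, actin and translation genes in this group, and extension lengths ran from 3 nt in *ATP3* to 90 nt in *RIP1*.

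The lowest ratios came from transcripts with few or no distal footprints, and their extensions ranged from sparse to dense. Extension density in *sup45-ts* at 37°C ran from 19.2% of CDS density in *CBF5* to 6366% in *OM45*. It lay above the median of 168% over the 637 transcripts in *OM45*, *AHC2* and *ALT1*, and below it in the others named in this paragraph. *YIL002W-A* had no distal footprint in *sup45-ts* at 37°C, where 190 would be expected at CDS density (upper limit of the ratio 1.96%), and 44 extension footprints. *OM45*, a mitochondrial outer membrane protein gene, had 1290 footprints in an extension of 12 nt and 3 in the 90 nt beyond it (1.97%, 0.407 to 5.78%), where the same CDS carried 1910. *NPC2*, a sterol transfer protein gene, had 266 extension and 3 distal footprints (1.19%). The alanine transaminase gene *ALT1* had 61 extension and 1 distal footprint (0.904%), *AHC2*, of a histone acetyltransferase complex, 83 and 2 (1.42%), and *RPL37B* 50 and 8 (1.74%). *CBF5*, the pseudouridine synthase of H/ACA ribonucleoproteins, had only 5 extension and 2 distal footprints (1.51%), and *RPS16A* 24 and 3 (1.65%). The limit on reads shared with a paralogue also holds for the CDS counts of *RPL37B* and *RPS16A*. *TRP1*, which encodes an enzyme of tryptophan synthesis and is present as the allele trp1-1 in both strains, had 1 distal footprint (0.525%) beside 1142 CDS footprints in *sup45-ts* against 18 CDS footprints in *SUP45* cells at 37°C, with 18 in *sup45-ts* against 11 in *SUP45* cells at 25°C.

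**Figure D3:**
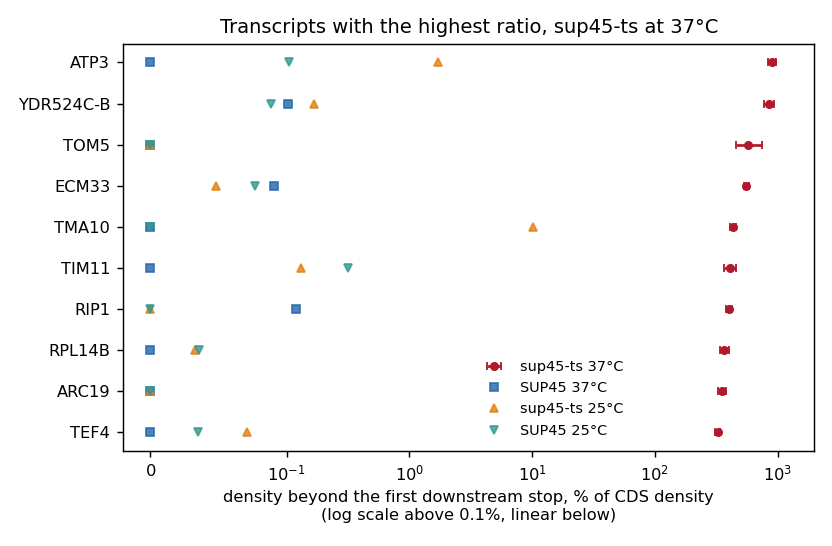
Distal-to-CDS ratio of the 10 transcripts at the top of the range in *sup45-ts* at 37°C, among those with at least 100 expected footprints and no same-strand overlap, in the 4 conditions, on an axis that is logarithmic above 0.1% and linear below. Bars are 95% intervals for *sup45-ts* at 37°C that cover counting error of the distal part and of the CDS. In *sup45-ts* at 37°C they lie between 327 and 903%.

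A few transcripts held much of the signal. In *sup45-ts* at 37°C the 10 transcripts with most distal footprints held 26.5% of them and 5.22% of the CDS footprints. First among these was *SPO24*, a gene named for sporulation that was singled out after its values were seen. It had 17271 distal footprints in *sup45-ts* against 0 in *SUP45* cells at 37°C, with 0 in *sup45-ts* against 2 in *SUP45* at 25°C. Its ratio in *sup45-ts* at 37°C was 61.6%. The CDS of *SPO24* had 15883 footprints in *sup45-ts* and 976 in *SUP45* at 37°C. Without those 10 transcripts the pooled ratio was 48.2%.

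In the other conditions the transcripts with most distal footprints were abundant mRNAs and *RTG1*, which shares distal sequence with a neighbour. *RTG1*, a transcription factor gene of mitochondrial retrograde signalling, ranked first in all 3. It had 143 distal footprints in *sup45-ts* against 41 in *SUP45* cells at 37°C, with 125 in *sup45-ts* against 166 in *SUP45* cells at 25°C. Its transcript, with a distal part of 996 nt (chrXV:200980-201975, minus strand), overlaps that of *HST1*, a histone deacetylase gene, by 997 bp, and footprints of both transcripts cannot be told apart there. *RTG1* alone held 15.5% of the distal footprints of *SUP45* at 25°C, and without it the pooled ratios were 57.0% in *sup45-ts* against 0.0365% in *SUP45* cells at 37°C, with 0.0726% in *sup45-ts* against 0.0424% in *SUP45* cells at 25°C. The transcript of the plasma membrane proton pump gene *PMA1* overlaps that of YGL007C-A by 141 bp. That overlap was taken between whole transcripts, and whether it reaches the distal part of *PMA1* was not examined. *PMA1* had 3489 distal footprints in *sup45-ts* against 30 in *SUP45* cells at 37°C, with 50 in *sup45-ts* against 43 in *SUP45* at 25°C. *CCW12*, a cell wall mannoprotein gene without overlap, had 7723 in *sup45-ts* against 25 in *SUP45* cells at 37°C, with 55 in *sup45-ts* against 41 in *SUP45* at 25°C. As a share of CDS density that was 212% in *sup45-ts* against 0.124% in *SUP45* cells at 37°C, with 0.137% in *sup45-ts* against 0.115% in *SUP45* at 25°C. *HOR7*, a gene induced by osmotic stress, had 5442 in *sup45-ts* against 19 in *SUP45* cells at 37°C, with 12 in *sup45-ts* against 9 in *SUP45* at 25°C. *RPL38* had 5845 in *sup45-ts* against 4 in *SUP45* cells at 37°C, with 49 in *sup45-ts* against 12 in *SUP45* at 25°C. *RPL13A* had 44 in *sup45-ts* against 0 in *SUP45* cells at 37°C, with 13 in *sup45-ts* against 21 in *SUP45* cells at 25°C. That is 18.3% of the CDS density for *sup45-ts* at 37°C, while *SUP45* at 25°C had 0.216%.

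Distal density tended to be lower where the extension was longer. In *sup45-ts* at 37°C the pooled distal-to-CDS ratio was 71.4% for an extension of 3 nt (136 transcripts) and 74.6% for 4 to 9 nt (303). It was 58.8% for 10 to 15 nt (188), 61.3% for 16 to 32 nt (295), 46.9% for 33 to 60 nt (299), 45.5% for 61 to 120 nt (164) and 16.9% above 120 nt (30). In the class of 33 to 60 nt, *SPO24* alone held 17271 of the 40679 distal footprints, at a ratio of 61.6%. In *sup45-ts* at 25°C the ratios of the same classes were 0.320%, 0.0930%, 0.103%, 0.0445%, 0.0270%, 0.0115% and 0.0207%, the last from 5 footprints. At 25°C the class of 3 nt had 0.320% (0.278 to 0.367%) in *sup45-ts* against 0.108% (0.0817 to 0.140%) in *SUP45*, whereas the class of 33 to 60 nt had 0.0270% in *sup45-ts* against 0.0265% in *SUP45*. The intervals of both strains at 25°C did not overlap for 3 nt, 4 to 9 nt and 16 to 32 nt, and they overlapped for 10 to 15 nt and from 33 nt on, in counts without replicates. The class of 10 to 15 nt, with 0.103% (0.0941 to 0.113%) in *sup45-ts* against 0.0851% (0.0761 to 0.0949%) in *SUP45*, holds *RTG1*, described above, and without it had 0.0756% (0.0678 to 0.0841%) in *sup45-ts* against 0.0417% (0.0355 to 0.0487%) in *SUP45*. By distal length the ratio of *sup45-ts* at 37°C was 51.7% for 90 to 119 nt, 45.7% for 120 to 149 nt, 56.1% for 150 to 199 nt, 59.1% for 200 to 299 nt and 73.7% from 300 nt on. That last class held 47784 distal footprints where 64852 would be expected at CDS density. Within it *YDR524C-B* alone had 9138 where 1079 would be expected, and *RIP1* had 3987 where 993 would be, so its value leans on few transcripts. With the transcripts cut into 4 groups by CDS RPKM averaged over conditions, the ratio was 72.5% in the lowest group and 61.9%, 55.9% and 56.3% in the next ones.

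**Figure D4:**
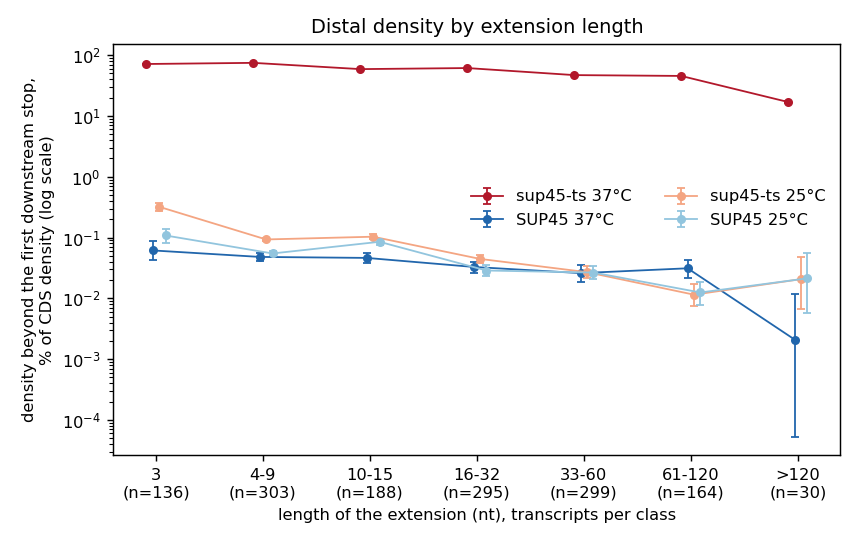
Pooled distal-to-CDS ratio, on a log axis, by length of the extension in nt, with the number of transcripts in each class, for the 4 conditions. Bars are 95% Poisson intervals. In *sup45-ts* at 37°C the ratio was 71.4% at 3 nt and 16.9% above 120 nt, and *sup45-ts* at 25°C lay above *SUP45* at 25°C at 3 nt, with overlapping intervals for 10 to 15 nt and from 33 nt on.

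In the extension class of 3 nt, 33 of 136 transcripts had no extension footprint in *sup45-ts* at 37°C. Over all lengths, 9 transcripts had at least 100 distal footprints in *sup45-ts* at 37°C and none in the extension, which were counted after the values were seen and of which 7 have an extension of 3 nt. Beside *ATP3* they were *YNL190W* (980 distal footprints), *COX6* (387), a cytochrome c oxidase subunit gene, *MRPL28* (356), a mitochondrial ribosomal protein gene, *YCR061W* (282), *YNR061C* (201), *YIL102C-A* (131), *MAD2* (125), of the spindle checkpoint, and *PEP5* (123), of vacuolar protein sorting. *COX6* and *PEP5* overlap another transcript on the same strand.

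Genes of translation termination, recycling and mRNA surveillance gave 8 regions from a list of 19. All 8 had distal footprints in *sup45-ts* at 37°C, as did 97.2% of all 1415 regions. Together the 8 held 2248 distal footprints in *sup45-ts* against 0 in *SUP45* cells at 37°C, with 7 in *sup45-ts* against 2 in *SUP45* cells at 25°C. Most came from *STM1*, the gene of a ribosome-binding protein, which had 1916 in *sup45-ts* against 0 in *SUP45* cells at 37°C, with 4 in *sup45-ts* against 0 in *SUP45* at 25°C. Its ratio in *sup45-ts* at 37°C was 309% (291 to 328%), so the pooled ratio of 125% stands beside a median of 29.8% over the 8. *RLI1*, the recycling factor, had 106 in *sup45-ts* at 37°C and 0 elsewhere (63.4%), and *HCR1*, whose product is a subunit of initiation factor eIF3, had 60 in *sup45-ts* and 0 in *SUP45* at 37°C (34.9%). *SUP35*, the eRF3 gene, had 31 in *sup45-ts* and 0 in *SUP45* at 37°C (24.6%). Their median was taken with no limit on expected footprints. It stands beside 32.4% over the 637 transcripts with at least 100 expected and 36.0% over the 1237 with at least 20.

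Glycolysis and fermentation genes gave 14 regions of 18 genes. Their pooled ratio was 48.3% in *sup45-ts* against 0.0120% in *SUP45* cells at 37°C, with 0.0357% in *sup45-ts* against 0.0172% in *SUP45* cells at 25°C, and a median of 23.6% in *sup45-ts* at 37°C. The enolase gene *ENO2* had 6232 distal footprints in *sup45-ts* against 7 in *SUP45* cells at 37°C, with 23 in *sup45-ts* against 9 in *SUP45* at 25°C. Its ratio was 137% in the mutant at 37°C. The phosphoglycerate mutase gene *GPM1* had 2783 in *sup45-ts* against 7 in *SUP45* cells at 37°C, with 37 in *sup45-ts* against 9 in *SUP45* at 25°C, and its ratio in the mutant at 37°C was 108%. The aldolase gene *FBA1* had 1316 in *sup45-ts* against 1 in *SUP45* cells at 37°C, with 2 in *sup45-ts* against 0 in *SUP45* at 25°C, and its ratio in the mutant at 37°C was 32.4%. Paralogues had unlike values in *sup45-ts* at 37°C, with 209% in *HXK2* and 14.5% in *HXK1*, both hexokinases, and 137% in *ENO2* and 21.5% in *ENO1*. Reads shared by near-identical copies may have been assigned to either, so the CDS counts behind these values are uncertain.

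Heat shock and chaperone genes gave 8 regions of 23. Their pooled ratio was 41.7% in *sup45-ts* against 0.0201% in *SUP45* cells at 37°C, with 0.0842% in *sup45-ts* against 0.0730% in *SUP45* at 25°C. The values at 25°C rest on 13 distal footprints in *sup45-ts* (0.0448 to 0.144%) and 9 in *SUP45* (0.0334 to 0.139%), with overlapping intervals. *HSP12*, for a small membrane-associated heat shock protein, had 6255 distal footprints in *sup45-ts* and 4 in *SUP45* at 37°C (54.7%). The Hsp90 gene *HSP82* had 3757 in *sup45-ts* and 2 in *SUP45* at 37°C (55.4%), and the Hsp70 gene *SSA4* had 3701 in *sup45-ts* and 1 in *SUP45* (38.4%). The CDS of *SSA4* had 156221 footprints in *sup45-ts* and 269565 in *SUP45* at 37°C, beside its single distal footprint in *SUP45*. The chaperonin gene *HSP10* had the highest ratio of the list at 163% and *HSP60* the lowest at 9.28%.

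Cytosolic ribosomal protein genes gave 94 regions of 138, all with distal footprints in *sup45-ts* at 37°C, beside 97.2% of all 1415 regions. Their pooled ratio was 48.4% in *sup45-ts* against 0.0349% in *SUP45* cells at 37°C, with 0.0615% in *sup45-ts* against 0.0311% in *SUP45* at 25°C. Their median in *sup45-ts* at 37°C was 24.0%, and the highest was 368%. Genes with names in A or B have a paralogue, and reads shared by both copies may have been assigned to either. The CDS counts behind their ratios are therefore uncertain. *RPS28B*, whose long 3'-UTR is known for a decay element bound by its own protein and Edc3, had 3310 footprints in 568 distal nt in *sup45-ts* against 3 in *SUP45* at 37°C (165%). *RPL6B* had 1701 in *sup45-ts* against 0 in *SUP45* at 37°C (233%). Of 10 mRNAs known for localisation or Puf protein binding through the 3'-UTR, only *ASH1* and *COX17* met the length rule. *ASH1*, whose mRNA is carried to the bud, had 16 distal footprints in *sup45-ts* at 37°C and 0 elsewhere (58.6%, 33.2 to 96.2%), and *COX17*, a copper chaperone gene whose mRNA Puf3 binds, had 26 in *sup45-ts* and 0 in *SUP45* at 37°C (8.0%, 5.15 to 11.9%).

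Shorter distal parts gave ratios of the same order. In the 1189 annotated transcripts with 1 to 89 distal nt the ratio was 45.9% in *sup45-ts* against 0.0392% in *SUP45* cells at 37°C, with 0.0647% in *sup45-ts* against 0.0383% in *SUP45* cells at 25°C. The 1415 longer regions lay above them by more than counting error in each condition except *SUP45* at 37°C, where the intervals overlapped. Without *RTG1* the intervals also overlapped in both strains at 25°C.

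The RNA-Seq libraries gave a replicated measure of the same mRNAs that the length rule did not use. Of the 1415 transcripts 1414 were tested, and edgeR's quasi-likelihood test called 412 higher (29.1%) and 721 lower (51.0%) in *sup45-ts* than in *SUP45* at 37°C at an adjusted p under 0.05. Among all 6767 transcripts tested 39.5% were higher and 39.4% were lower. The 1416 other transcripts with an annotated 3'-UTR gave 27.8% higher and 54.5% lower, so the shares lay near those of annotated transcripts in general. The median log2 fold change was -0.22 over the 1414, -0.26 over those 1416 and -0.01 over all. The sources used here do not say whether the 2 replicates were separate cultures, so p-values measure only the spread between these samples, which may be technical.

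The distal ratio was hardly related to the change of the mRNA. Over the 637 transcripts above, Spearman's rho of the distal-to-CDS ratio in *sup45-ts* at 37°C and the mRNA log2 fold change was 0.05, as a description without a test. *TMA10* mRNA had 1751 and 2176 FPKM in *sup45-ts* and 286 and 349 FPKM in *SUP45* at 37°C, without overlap (log2 fold change 2.64 ± 0.13 (SE), edgeR adjusted p = 1.09e-07). *ATP3* mRNA had 130 and 128 FPKM in *sup45-ts* and 171 and 182 FPKM in *SUP45* (-0.44 ± 0.06, edgeR adjusted p = 1.54e-04). At the low end, *OM45* mRNA had 146 and 162 FPKM in *sup45-ts* and 58.6 and 61.01 FPKM in *SUP45* (1.37 ± 0.08, edgeR adjusted p = 3.57e-07), and *AHC2* mRNA had 309 and 277 FPKM in *sup45-ts* and 505 and 589 FPKM in *SUP45* (-0.89 ± 0.07, edgeR adjusted p = 2.32e-06). Both ends of the distal ratio thus held mRNAs that rose and mRNAs that fell.

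By list, the mRNA of 6 of the 8 termination genes fell, with a median log2 fold change of -0.59, and *TMA20* (-0.22, edgeR adjusted p = 0.335) and *PAB1* (0.00, edgeR adjusted p = 0.996) were not called. *HCR1* fell to 133 and 142 FPKM in *sup45-ts*, against 273 and 279 FPKM in *SUP45* (-0.997 ± 0.08, edgeR adjusted p = 1.95e-06). In glycolysis and fermentation 1 of 14 rose (*HXK1*) and 11 fell (median -0.75), in heat shock 4 of 8 rose and 2 fell (median 0.31), and among ribosomal protein genes 27 of 94 rose and 38 fell (median -0.15). *SSA4* had 10238 and 10366 FPKM in *sup45-ts* and 5813 and 5574 FPKM in *SUP45* at 37°C (0.86 ± 0.13, edgeR adjusted p = 1.85e-04). *COX17* fell to 89.3 and 95.8 FPKM in *sup45-ts*, against 257 and 299 FPKM in *SUP45* (-1.57 ± 0.10, edgeR adjusted p = 4.94e-07). The shares over all transcripts given above are the background for these counts.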

How the data were processed

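Footprint values came from 4 tables, each for a condition. For these the authors had trimmed reads, removed non-coding RNA and duplicates, aligned to a transcriptome of S288C R64-2-1 with Bowtie and RSEM, assigned P-sites with riboWaltz and combined replicates. The deposited counts are footprints per region, and the CDS counts leave out the first 15 and last 33 nt. The deposited RPKM of the CDS, scaled by the authors to the footprints of a table, served for a filter of at least 5 and for groups by level. The RPKM of the other regions and the readthrough efficiency that the tables also hold were not used, nor were the 8 ribosome profiling files per library. For RNA-Seq, the authors ran RSEM and deposited expected counts and FPKM per transcript. Libraries held between 107324550 and 153654244 expected counts.

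Distal footprints are 3'-UTR minus extension counts, over the difference in length. The distal-to-CDS ratio is their sum over the sum expected at each transcript's CDS density, with exact Poisson intervals at 95% on the distal sum for sets of transcripts, and for single transcripts exact (Clopper-Pearson) intervals that also cover the counting error of the CDS. The distal-to-extension ratio sets pooled densities against each other, with exact (Clopper-Pearson) intervals. Intervals cover counting error only. Same-strand overlap above 18 bp, taken between whole transcripts, and coordinates come from RefSeq R64 gene positions and the deposited lengths. Gene and CDS length agreed in 5626 of 5901 transcripts with coordinates.

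Rounded expected counts of all 8 RNA-Seq libraries entered one edgeR fit (quasi-likelihood, TMM, filterByExpr), with p-values adjusted by the Benjamini-Hochberg method over all transcripts tested, with a threshold of 0.05. The code was tested on simulated data. The regions and gene lists were chosen with earlier results of these data known. Named transcripts were the 10 highest and 10 lowest ratios in *sup45-ts* at 37°C with at least 100 expected footprints and no overlap, the 4 with most distal footprints in each other condition, list members (all if at most 6, otherwise the 3 with most footprints in *sup45-ts* at 37°C) and the 2 transcripts on either side of the length limit. Others were named after their values were seen, and 1 of the 10 lowest is not reported here. Stop codon identity was planned and was not analysed, since no genome sequence was used here.

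Alternatives were overlap, length limits of 60 and 150 nt, CDS RPKM, pooled densities, a median with 0.5 footprints added, the largest transcripts left out, an extension of at least 33 nt, DESeq2, RLE, no filter, the libraries at 37°C alone, a replicate block and each replicate left out. Leaving out *RTG1*, also within its class of extension length, was chosen after seeing the data. R 4.3.3 ran edgeR 4.0.16, limma 3.58.1 and DESeq2 1.42.0, and Python 3.11.15 ran pandas 2.3.3, scipy 1.17.1, numpy 2.4.6 and matplotlib 3.10.9.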

Additional observations from a re-analysis of the deposited data

Results flagged for a closer look

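Transcripts with the default 3'-UTR length, which stand outside the regions described above because their true 3'-UTR end is not annotated, carried the same kind of signal. In the 2112 of them with a distal part of at least 90 nt and no same-strand overlap, the distal-to-CDS ratio was 57.1% in *sup45-ts* against 0.133% in *SUP45* cells at 37°C, with 0.163% in *sup45-ts* against 0.129% in *SUP45* cells at 25°C. They were singled out as data outside the main measurement with a value above that of the control condition. With the overlapped ones kept, 2988 transcripts gave 62.1% in *sup45-ts* against 1.53% in *SUP45* cells at 37°C, with 2.22% in *sup45-ts* against 2.80% in *SUP45* at 25°C.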

How the results depend on the processing

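A ratio counts as moved where it left its 95% interval. Without same-strand overlap the distal-to-CDS ratio was 57.3 in *sup45-ts* and 0.0341% in *SUP45* at 37°C, with 0.0723 in *sup45-ts* and 0.0400% in *SUP45* at 25°C. With a distal part of at least 150 nt it was 60.8 in *sup45-ts* and 0.0445% in *SUP45* at 37°C, with 0.0856 in *sup45-ts* and 0.0573% in *SUP45* at 25°C, and with at least 60 nt 55.6% in *sup45-ts* at 37°C and within the interval in the other conditions. Pooled densities gave 72.5% in the mutant at 37°C, with 0.0987 in *sup45-ts* and 0.0675% in *SUP45* at 25°C. Without the 10 transcripts with most distal footprints the ratios were 48.2 in *sup45-ts* and 0.0299% in *SUP45* at 37°C, with 0.0634 in *sup45-ts* and 0.0363% in *SUP45* at 25°C. The median over transcripts with 0.5 footprints added was 37.9 in *sup45-ts* and 0.237% in *SUP45* at 37°C, with 0.312 in *sup45-ts* and 0.327% in *SUP45* at 25°C, where the added amount sets the value of transcripts without a footprint. Without *RTG1* the ratio at 25°C was 0.0726% in *sup45-ts* and 0.0424% in *SUP45*. A CDS RPKM of at least 5 moved no ratio. The distal-to-extension ratio was 23.7 in *sup45-ts* and 9.78% in *SUP45* at 37°C, with 3.87 in *sup45-ts* and 6.75% in *SUP45* at 25°C without overlap, 19.2 in *sup45-ts* and 8.07% in *SUP45* at 37°C, with 3.27 in *sup45-ts* and 5.74% in *SUP45* at 25°C without the 10 transcripts, and 21.4 in *sup45-ts* and 7.94% in *SUP45* at 37°C, with 1.28 in *sup45-ts* and 3.98% in *SUP45* at 25°C with an extension of at least 33 nt. In each of these settings *sup45-ts* at 37°C lay highest, and except in that median *sup45-ts* lay above *SUP45* at 25°C in the distal-to-CDS ratio. The cause of these shifts was not tested.

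At 37°C 1133 of the tested transcripts were called in mRNA, against 1157 with DESeq2 and 1152 with the replicate block. Without each replicate in turn the number lay between 1053 and 1085, with 370 to 395 higher and 677 to 704 lower. Same-numbered samples correlated between -0.17 and 0.22 in their deviations, so the numbers were not taken to pair the samples. Of the 43 named transcripts 35 kept their call in all 9 alternatives. *RPL14B*, not called (-0.03), ranged from -0.18 to 0.091 without each replicate in turn, with 0.01 without *SUP45* 37°C replicate 2. Calls of *TOM5*, *RPL38*, *RPS28B* and *ATG12* were lost in at least 1 alternative, and *YDR524C-B*, *TEF4*, *ALT1* and *RPL37B* were called in at least 1. The planned grouping by stop codon was not run.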
